A study of Mus musculus with 8 samples.

Results

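The transcripts of AP-1 transcription factor subunits were followed in mouse endometrium, the lining of the uterus, 8 h after mating. The members were named by symbol and not picked by a threshold: Fos, Fosb, Fosl1, Fosl2, Jun, Junb, Jund, Atf3, Batf and Maff. Earlier results of these data were known when they were named. Of these 10 genes, 9 had a row in the deposited table of 41345 transcript clusters, the probe groups of the array, which hold 24647 distinct gene symbols. Fosl1 was not analysed here. Jund had 2 clusters, so 10 clusters stood for the 9 genes, and the cluster with the lower ID represented Jund in counts. CBA x C57Bl/6 F1 females had mated with Balb/c males that were either Intact, and delivered seminal fluid, or SVX/VAS, which per the labels gave no seminal fluid exposure. The labels expand neither SVX nor VAS, and they give no age. Each of the 2 groups comprised 4 arrays, and each array carried RNA scraped from the endometrium of 4 pooled females, 16 females in a group.

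AP-1 is a family of dimeric transcription factors. Each subunit carries a basic region that contacts DNA and a leucine zipper that pairs it with another subunit. Fos proteins do not form stable dimers with each other and need a Jun partner, whereas Jun proteins can also pair among themselves, so the mix of subunits sets which dimers a cell can build. Fos, Fosb, Jun, Junb and Atf3 are immediate-early genes, transcribed within minutes of growth factor, cytokine or stress signals through MAP kinases, and their mRNAs are short-lived. In the uterus Fos and Jun are known as genes that respond to estrogen.

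The arrays gave values on the log2 scale with array medians from 5.35 to 5.41. Pairwise correlations over all clusters were 0.971 to 0.978 among Intact arrays, 0.981 to 0.984 among SVX/VAS arrays and 0.972 to 0.981 between the groups, so the Intact pools were the more varied. Epithelial markers, the defining ones of endometrial lining, had mean log2 values over 9 genes of 9.49 to 9.84 on the Intact arrays. On the SVX/VAS arrays these were 9.49 to 9.73. Smooth muscle markers, which would mark leftover myometrium, had means over 6 genes of 7.19 to 8.50 on the Intact arrays and 7.45 to 8.21 on the SVX/VAS arrays. Both sets lay above the array medians, so these levels do not say how pure the scraped endometrium was. In bulk tissue, fewer cells of a type and less RNA per cell cannot be told apart. Probes of different genes differ in brightness, so levels were compared between arrays and not between genes.

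The promoters of the 4 members whose groups did not overlap are printed because the results below turn on them. Each runs from 250 bases before to 50 bases after the RefSeq start, on build GRCm38.p6. Capitals mark motifs a search of both strands found: TGACGT, the core of a cAMP response element, TGACATCA, an AP-1-like element, TATAAA, and the kB site bound by NF-kB.
Fos (chr12:85473640-85473939, plus strand): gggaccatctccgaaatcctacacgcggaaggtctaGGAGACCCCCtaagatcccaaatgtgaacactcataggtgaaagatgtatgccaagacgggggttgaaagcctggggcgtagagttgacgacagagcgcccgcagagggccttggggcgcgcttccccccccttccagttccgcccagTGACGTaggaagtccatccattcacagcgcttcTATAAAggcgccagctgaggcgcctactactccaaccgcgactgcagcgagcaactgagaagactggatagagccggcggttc
Fosb (chr7:19309996-19310295, minus strand): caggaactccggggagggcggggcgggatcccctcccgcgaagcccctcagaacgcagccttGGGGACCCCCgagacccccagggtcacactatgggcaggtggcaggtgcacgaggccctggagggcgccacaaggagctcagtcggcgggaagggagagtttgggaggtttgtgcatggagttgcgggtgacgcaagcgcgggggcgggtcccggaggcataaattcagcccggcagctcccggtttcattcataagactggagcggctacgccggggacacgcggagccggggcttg
Jun (chr4:95052173-95052472, minus strand): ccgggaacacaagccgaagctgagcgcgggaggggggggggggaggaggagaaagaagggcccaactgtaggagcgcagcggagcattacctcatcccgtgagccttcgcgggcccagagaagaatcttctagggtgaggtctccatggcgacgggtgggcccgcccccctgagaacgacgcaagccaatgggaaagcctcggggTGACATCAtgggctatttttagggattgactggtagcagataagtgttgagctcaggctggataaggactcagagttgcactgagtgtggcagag
Junb (chr8:84978699-84978998, minus strand): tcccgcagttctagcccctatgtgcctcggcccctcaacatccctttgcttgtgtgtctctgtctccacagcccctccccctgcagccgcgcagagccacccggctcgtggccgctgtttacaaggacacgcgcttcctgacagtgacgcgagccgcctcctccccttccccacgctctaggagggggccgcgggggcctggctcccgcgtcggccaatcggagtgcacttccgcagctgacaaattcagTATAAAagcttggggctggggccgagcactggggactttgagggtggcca
The Fos window held TGACGT from position -66 to -61 and TATAAA from -33 to -28, counted from the start, and a kB match from -214 to -205. The Jun window held TGACATCA from -45 to -38. Fosb had a kB match from -188 to -179, and Junb had TATAAA from 1 to 6.

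Among the 11 RefSeq windows of the 9 measured members (Maff has 3), TGACGT occurred in 4, against 7.51% of all 32851 promoter windows of this length. It was in the windows of Fos, Atf3, Batf and Maff, and in the Maff window it is part of the full element TGACGTCA, which 1.79% of windows hold. TGACATCA occurred in 2 member windows, of Jun and Maff, against 3.62% of all. The kB site occurred in 4, of Fos, Fosb, Fosl2 and Maff, against 8.46%. The AP-1 element TGANTCA and the CArG box bound by serum response factor occurred in 0 member windows, against 7.81% and 1.63% of all. Sequence further upstream or downstream than these windows was not searched, so their absence here does not show that a member lacks either site. GGGCGG and CCAAT, also searched but left in lower case, occurred in 8 and 3 member windows, against 35.7% and 37.4% of all. A match in letters is a description and no evidence of binding.

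After Intact mating, Fos was 1.88-fold higher, Fosb 1.33-fold higher and Junb 1.20-fold higher than after SVX/VAS mating, while Jun was 1.47-fold lower. In each of these 4 genes the values of the groups did not overlap. Fosl2, Jund, Atf3, Batf and Maff overlapped between the groups. No member passed a Benjamini-Hochberg adjusted p of 0.05 in limma's moderated test over all 41345 clusters, although Fos came close with an adjusted p of 0.057. That test called 0.0822% of clusters, 0.0508% as higher and 0.0314% as lower. An unadjusted p under 0.05 was reached by 4 of the 9 members, 3 higher and 1 lower, and by 11.9% of clusters, 5.13% higher and 6.78% lower.

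Groups that did not overlap were seen in 3 members that were higher and 1 that was lower, where the same held for 8.17% of all clusters, 3.37% in the higher and 4.81% in the lower direction. The submitters' own criteria asked for 1.5-fold or more and an unadjusted p below 0.05. Fos alone of the members qualified, where 1.86% of all clusters did, 0.733% of them higher and 1.12% lower. The median log2 difference of the 9 members was 0.02, the value of Maff, beside 0.0005 over all clusters. The differences were positive in 6 members and negative in 3. Those of the 5 overlapping members lay between -0.15 (Jund) and 0.15 (Batf).

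**Figure D1:**
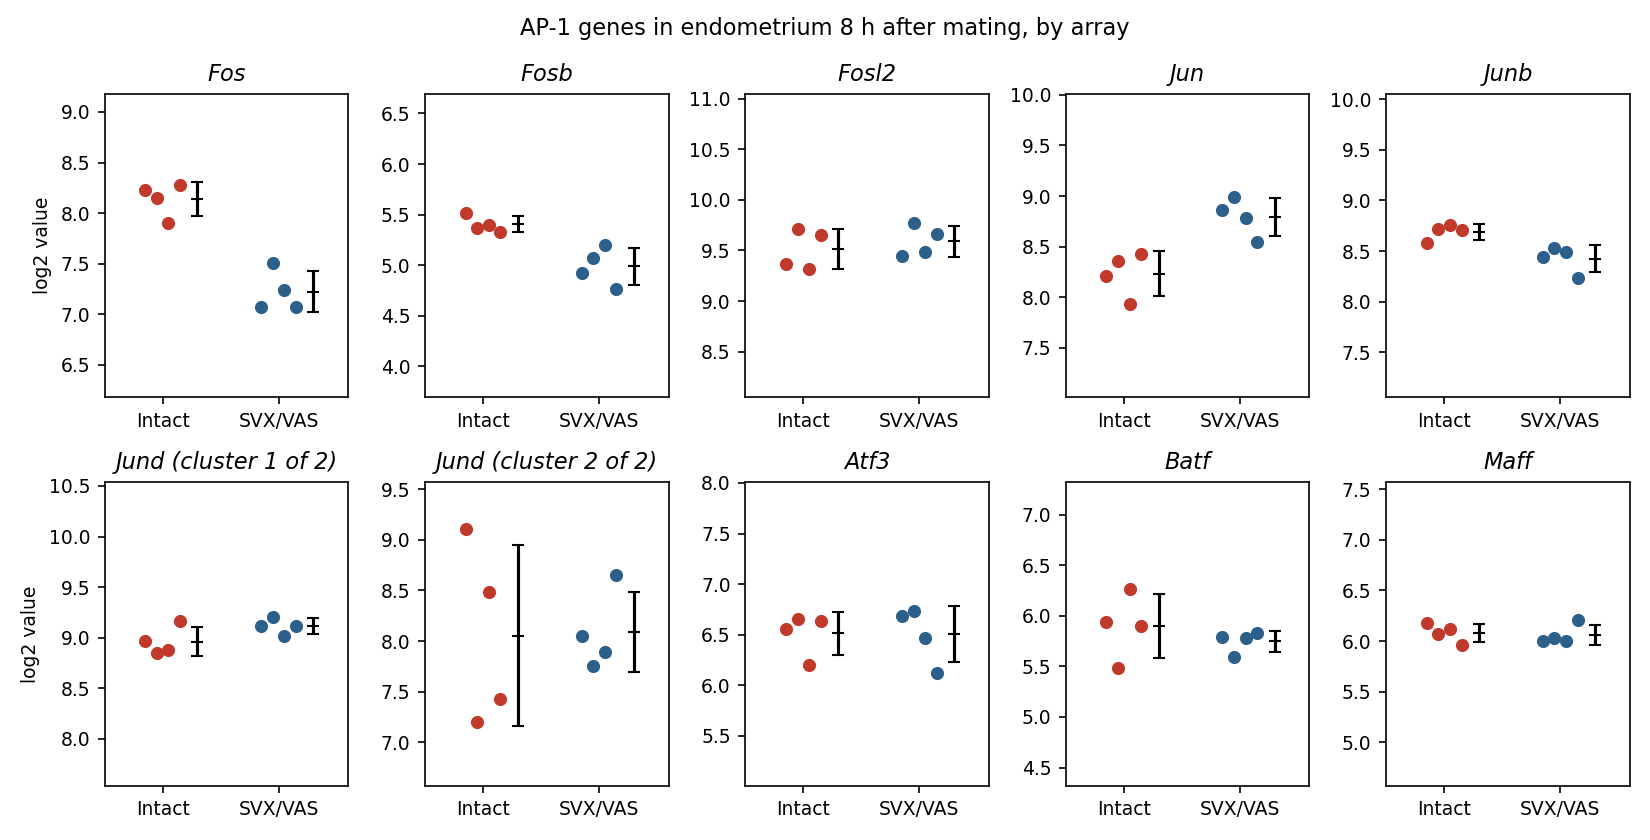
Values of the AP-1 genes on each array, on the log2 scale, with points for single arrays (4 Intact, 4 SVX/VAS) and bars for the mean and SD of a group; each panel spans the same range of log2 units. Fos, Fosb and Junb are higher on every Intact array than on any SVX/VAS array, Jun is lower on every Intact array, and the others overlap.

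Fos, the founding Fos-family subunit, is a gene of chromosome 12. Its log2 values were 8.23, 8.14, 7.90 and 8.28 on the Intact arrays and 7.07, 7.51, 7.24 and 7.07 on the SVX/VAS arrays. The lowest Intact array stood 0.39 log2 units above the highest SVX/VAS array, the widest gap among the members. The group means were 8.14 ± 0.17 and 7.23 ± 0.21 (SD, n = 4 each), a log2 difference of 0.91 (SE 0.13, 95% interval 0.61 to 1.21). In fold terms the interval ran from 1.53 to 2.32. By limma's moderated test Fos ranked 51 of 41345 clusters by p (adjusted p = 0.057) and 324 by size of change, or 86 by size among the 27037 clusters with 1 gene symbol. The exact two-sided permutation test gave p = 0.029, the smallest that 4 arrays against 4 allow. The adjusted p was between 0.014 and 0.046 with quantile normalization, without dim clusters, over clusters with 1 symbol, with a trended robust prior or with array weights. It was 0.067 with median centring, 0.10 with the test the submitters used, and 0.21 with the replicate number as a block. The call thus depended on the setting. The filters, the prior, the submitters' test and the block leave the log2 difference unchanged by design. Where it could move, it was 0.95 with quantile normalization, 0.91 with median centring and 0.92 with array weights.

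Fosb encodes a second Fos-family subunit, of which a truncated splice form is also known, and is a gene of chromosome 7. Its values were 5.51, 5.37, 5.40 and 5.33 after Intact mating and 4.92, 5.07, 5.20 and 4.77 after SVX/VAS mating. All Intact arrays lay above all SVX/VAS arrays, by a gap of 0.13. The log2 difference was 0.41 (SE 0.11, 95% interval 0.16 to 0.67), with an adjusted p of 0.19 by limma and an exact permutation p of 0.029.

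Fosl2 encodes Fra-2, a Fos-family protein without the strong transactivation domain of Fos. Its gene is on chromosome 5. Its values were 9.36, 9.71, 9.32 and 9.65 on the Intact arrays and 9.45, 9.77, 9.48 and 9.66 on the SVX/VAS arrays. The groups overlapped almost entirely. The log2 difference was -0.08 (SE 0.13, 95% interval -0.37 to 0.21, adjusted p = 0.85 by limma), so a change of up to 1.29-fold in the lower direction or 1.15-fold in the higher direction was within the interval. The 1.5-fold of the submitters was outside it.

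Jun, the classical partner of Fos, differed in the opposite direction. The gene is on chromosome 4. Its values were 8.22, 8.36, 7.93 and 8.43 on the Intact arrays and 8.86, 8.99, 8.78 and 8.55 on the SVX/VAS arrays. Every Intact array lay below every SVX/VAS array, by a gap of 0.12. The means were 8.23 ± 0.22 and 8.79 ± 0.19 (SD, n = 4 each), a log2 difference of -0.56 (SE 0.14, 95% interval -0.88 to -0.24). Jun had an adjusted p of 0.17 by limma and an exact permutation p of 0.029. Its 1.47-fold difference fell just short of the submitters' fold, which it passed when Intact replicate 2, Intact replicate 4 or SVX/VAS replicate 4 was left out.

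Junb encodes a Jun-family subunit that activates more weakly than Jun at single AP-1 sites and can restrain it. Its gene is on chromosome 8. Its values were 8.58, 8.71, 8.76 and 8.71 after Intact mating and 8.45, 8.53, 8.49 and 8.24 after SVX/VAS mating. The groups were apart by 0.05 log2 units. The log2 difference was 0.26 (SE 0.10, 95% interval 0.04 to 0.49), with an adjusted p of 0.33 by limma and an exact permutation p of 0.029.

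Jund, the Jun-family member that is expressed in most tissues without stimulation, is also on chromosome 8. The cluster that stands for a RefSeq transcript had values of 8.97, 8.85, 8.87 and 9.16 on the Intact arrays and 9.12, 9.21, 9.02 and 9.12 on the SVX/VAS arrays. These overlapped, with a log2 difference of -0.15 (SE 0.10, 95% interval -0.38 to 0.08, adjusted p = 0.60 by limma). A second Jund cluster, assigned through a cDNA clone, varied far more, with Intact values of 9.11, 7.20, 8.48 and 7.42 and SVX/VAS values of 8.05, 7.76, 7.89 and 8.66. Its log2 difference was -0.04 with a 95% interval from -0.96 to 0.88, and the order of its arrays differed from that of the first cluster. With an SD of 0.90 among its Intact arrays, it could not show a change of the size seen in Fos.

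Atf3, a stress-induced factor that pairs with Jun proteins, had values of 6.56, 6.66, 6.20 and 6.64 on the Intact arrays and 6.69, 6.74, 6.46 and 6.13 on the SVX/VAS arrays. Each group held 1 low array, Intact replicate 3 and SVX/VAS replicate 4. The log2 difference was 0.01 (95% interval -0.36 to 0.38, adjusted p = 0.99 by limma), and its sign turned when any of 5 arrays was left out. Batf, a factor of lymphoid and myeloid cells that pairs with Jun proteins and lacks a transactivation domain, ranged from 5.49 to 6.26 on the Intact arrays and from 5.59 to 5.83 on the SVX/VAS arrays. Its log2 difference was 0.15 (95% interval -0.21 to 0.50, adjusted p = 0.76 by limma). The difference was 0.03 without Intact replicate 3, which had the highest Batf value, and 0.28 without Intact replicate 2, which had the lowest.

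Maff, a small Maf protein that has no transactivation domain, had values of 6.18, 6.07, 6.12 and 5.96 on the Intact arrays and 6.00, 6.03, 6.00 and 6.21 on the SVX/VAS arrays. SVX/VAS replicate 4 was the highest array of both groups. The log2 difference was 0.02 (95% interval -0.19 to 0.23, adjusted p = 0.96 by limma). The interval held no change beyond 1.17-fold, the tightest bound among the members. The intervals of the cluster that represents Jund, of Atf3 and of Batf reached 1.30-fold, 1.30-fold and 1.41-fold, all short of the submitters' 1.5-fold. That of the second Jund cluster reached 1.94-fold in the lower direction.

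**Figure D2:**
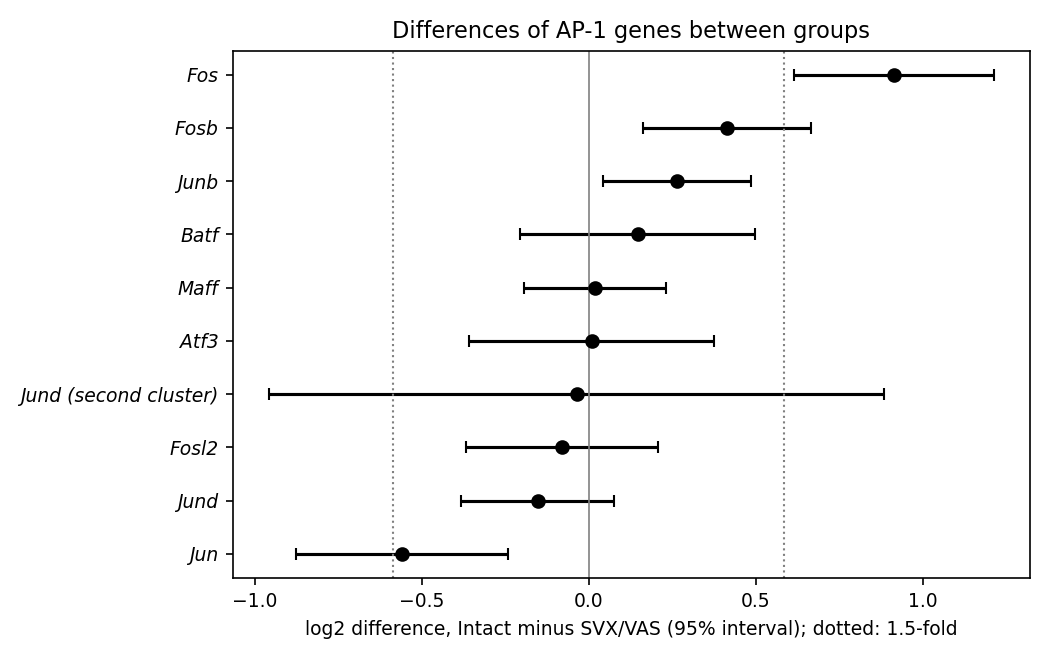
Log2 difference of each AP-1 cluster, Intact minus SVX/VAS, with its 95% interval from limma's moderated fit (4 arrays in each group); dotted lines mark 1.5-fold. The intervals of Fos, Fosb and Junb lie above 0 and that of Jun below 0, and the second Jund cluster has the widest interval.

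The opposite course of Fos and Jun was examined within arrays, where a shift common to an array cancels. The log2 value of Fos minus that of Jun ranged from -0.22 to 0.02 on the Intact arrays and from -1.79 to -1.47 on the SVX/VAS arrays. The ranges could not overlap, because Fos was higher and Jun lower on every Intact array, so their separation adds nothing to the single genes. The mean moved by 1.47 log2 units, so that Fos relative to Jun was 2.78-fold higher after Intact mating. The SD within a group was 0.11 and 0.15, smaller than that of either gene alone.

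Jun and Junb parted in the same way, and here too the separation followed from the single genes. Jun minus Junb ranged from -0.83 to -0.28 on the Intact arrays and from 0.29 to 0.46 on the SVX/VAS arrays, a shift of -0.82 in which the sign itself turned. Levels of these different probes do not say which mRNA was the more abundant. Fos minus Junb shifted by 0.65, with Intact values of -0.86 to -0.35 and SVX/VAS values of -1.37 to -1.02, so Fos differed more between the groups than Junb did. Fos also differed more than Fosb, by 0.50 log2 units. Fosl2 minus Jund, by contrast, ranged from 0.40 to 0.86 and from 0.33 to 0.57, which overlapped. Jun minus Atf3 ranged from 1.65 to 1.79 on the Intact arrays and from 2.17 to 2.42 on the SVX/VAS arrays, with SDs of 0.06 and 0.11, so Jun was lower relative to Atf3 as well. Junb minus Jund ranged from -0.46 to -0.12 on the Intact arrays and from -0.88 to -0.53 on the SVX/VAS arrays, again without overlap.

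All 36 pairs of the 9 members were compared in this way, a comparison chosen after the members' values had been seen. The exact two-sided permutation p was at its floor of 0.029 in 14 pairs, 7 of them pairs of Fos with another member. In the pairs of Jun with Fos, Fosb and Junb the single genes fixed that floor in advance. No pair passed after adjustment over the 36 (lowest adjusted permutation p = 0.073). With a floor of 0.029, a pair could pass only if many more than 14 pairs sat at that floor. The number of arrays therefore limited this outcome. Fos against Batf gave an exact permutation p of 0.057. Batf had an SD of 0.32 among the Intact arrays and 0.11 among the SVX/VAS arrays.

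**Figure D3:**
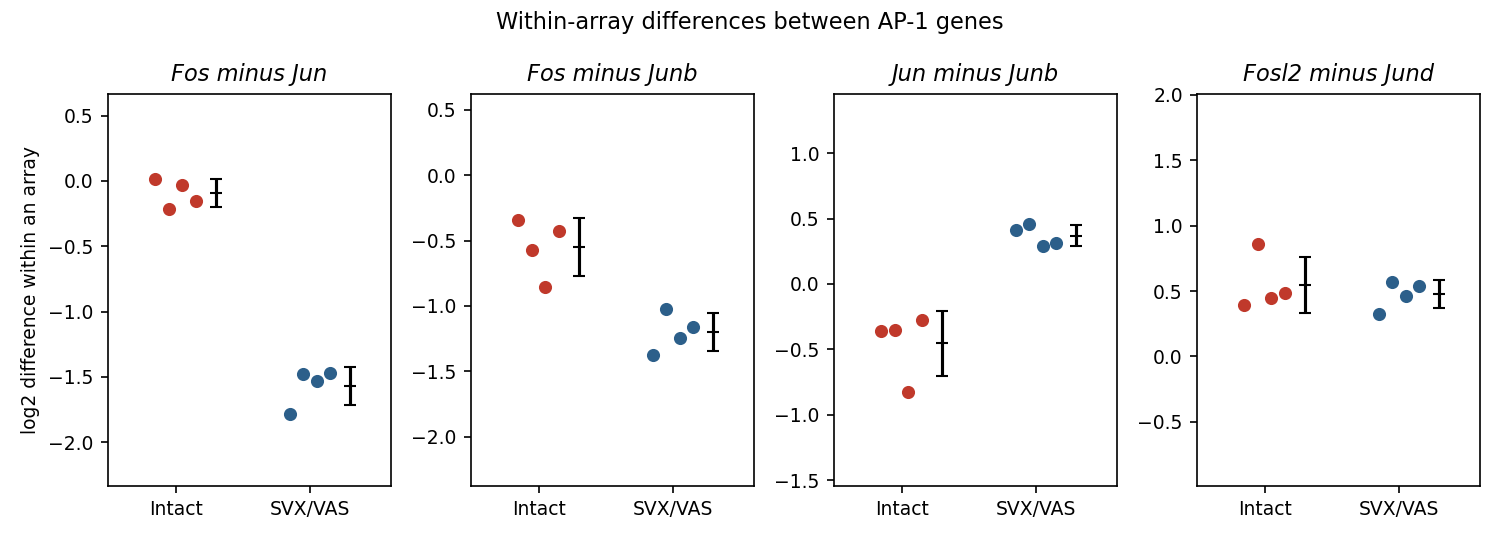
Differences between log2 values of AP-1 genes on the same array, for 4 of the 36 pairs, with points for arrays and bars for the mean and SD of a group (4 Intact, 4 SVX/VAS). Fos minus Jun differs by 1.47 log2 units between the groups and Jun minus Junb by -0.82, while Fosl2 minus Jund overlaps.

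Genes whose profile over the 8 arrays was most like that of a member were found by the root mean square difference of log2 values, each gene centred on its own mean. A near gene largely shares the member's group difference through this choice, so the folds and p-values below follow from it. Nearest to Fos were Scd2, a fatty acid desaturase (0.114 log2 units), Ccnd1, cyclin D1 (0.116), and Mvd, an enzyme of cholesterol synthesis (0.134), where the spread of Fos about its own mean was 0.485. Scd2 was 1.78-fold, Ccnd1 1.82-fold and Mvd 2.10-fold higher after Intact mating. Nearest to Jun were Tlr4, the lipopolysaccharide receptor (0.083), Tmem173, which encodes STING (0.084), and Adam8, a metalloprotease (0.089), beside a spread of 0.331 for Jun. They were 1.37-fold, 1.40-fold and 1.38-fold lower. Mefv, the pyrin gene (0.073), Wfdc12 (0.082) and Mgat4c (0.085) lay nearest to Fosb, and Amigo3 (0.051), Spata20 (0.052) and Mrpl36 (0.054) nearest to Junb. For Fosl2, Jund, Atf3, Batf and Maff, which varied little between the groups, the 15 nearest genes had adjusted p-values by limma of 0.57 or more.

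The genes around AP-1 were described by list. These lists were chosen with earlier results of these data known. Their counts beside the shares of all clusters are therefore descriptions and no test. Genes listed as AP-1 targets, several of which are also known targets of NF-kB, were mostly higher after Intact mating. Of 34 measured, 30 were positive, and 12 were higher and 0 lower by the submitters' criteria, where 0.733% of all clusters were higher and 1.12% lower. The median log2 difference was 0.29, beside 0.0005 over all clusters and 0.008 over those with 1 gene symbol. In limma's moderated test 2 rose with an adjusted p under 0.05 and 0 fell.

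Those that rose were Ccnd1, which drives entry into the cell cycle, and Il1b, an inflammatory cytokine. Ccnd1 had values of 7.84, 7.64, 7.48 and 7.83 on the Intact arrays and 6.84, 6.86, 6.89 and 6.75 on the SVX/VAS arrays (1.82-fold, adjusted p = 0.033). Il1b had values of 6.48, 7.02, 6.46 and 7.32 and of 5.35, 5.15, 4.48 and 4.87 (3.62-fold, adjusted p = 0.042). Lif, a cytokine required for implantation in mice, was next, with 7.64, 8.13, 7.49 and 7.90 against 6.86, 6.95, 6.75 and 6.49 (2.04-fold, adjusted p = 0.060). In each of these 3 genes the groups did not overlap. Of the 34 listed targets, 14 were higher and 1 lower without overlap, beside 3.37% and 4.81% of all clusters. Intact replicate 3 was the lowest Intact array for these 3 genes, as it was for Fos. The same array was also the lowest Intact array for Jun, Fosl2 and Atf3, so this is not particular to Fos and its listed targets.

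Further members of the list, chosen after their values were seen, were the urokinase receptor Plaur (2.10-fold higher, adjusted p = 0.14), the adhesion molecule Icam1 (1.77-fold higher, adjusted p = 0.20) and the prostaglandin synthase Ptgs2 (2.30-fold higher, adjusted p = 0.23). Krt18, an epithelial keratin, was 1.33-fold lower (adjusted p = 0.20 by limma), and it was also chosen after its values were seen. How far AP-1 itself had a part in these differences was not tested.

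Of 22 other immediate-early genes measured, 15 were positive, and 2 were higher and 0 lower by the submitters' criteria, beside 0.733% and 1.12% of all clusters. Limma's adjusted threshold was passed by 0 of them. At an unadjusted p under 0.05, 6 were higher and 0 lower, beside 5.13% and 6.78% of all clusters. The median log2 difference was 0.09. Nr4a1, an orphan nuclear receptor, had values of 6.11, 6.21, 6.03 and 6.38 after Intact mating and 5.37, 5.59, 5.80 and 5.32 after SVX/VAS mating (1.59-fold higher, adjusted p = 0.11). Zfp36, whose protein destabilizes cytokine mRNAs, was 1.55-fold higher (adjusted p = 0.17), and Ier3, a regulator of cell survival, 1.32-fold higher (adjusted p = 0.25). In these 3 genes the groups did not overlap. Of the 22, 4 were higher and 0 lower without overlap, beside 3.37% and 4.81% of all clusters.

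Of the 17 other genes of the AP-1 superfamily, 9 were positive and 8 negative, 0 were higher and 1 lower by the submitters' criteria, where 1.12% of all clusters were lower, and 0 passed by limma. At an unadjusted p under 0.05, 0 were higher and 3 lower, where 6.78% of all clusters were lower. Maf, a large Maf factor, was the 1 that was lower, with values of 4.61, 5.10, 5.85 and 5.56 on the Intact arrays and 5.84, 5.80, 6.38 and 6.40 on the SVX/VAS arrays (1.77-fold, adjusted p = 0.27). These groups overlapped slightly, and Maf no longer qualified with its second cluster or when any of 6 of the 8 arrays was left out. Nfe2l3, a cap'n'collar factor, was 1.39-fold lower with groups that did not overlap (adjusted p = 0.24 by limma), the 1 such gene of 17 where 4.81% of all clusters were lower without overlap. The repressor Bach2 was 1.30-fold lower (adjusted p = 0.40).

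Upstream of AP-1, 28 genes of the MAP kinase cascades held 13 positive and 15 negative members, with 0 past the submitters' criteria or limma's adjusted threshold. The 4 with an unadjusted p under 0.05, 1 higher and 3 lower, were a share near the 11.9% of all clusters, so the count says nothing particular about the cascade. Braf, a kinase that feeds the ERK cascade, was 1.43-fold lower, with values of 8.96, 8.86, 8.85 and 8.96 on the Intact arrays and 9.32, 9.36, 9.41 and 9.60 on the SVX/VAS arrays (adjusted p = 0.092). Its Intact arrays lay close together and all below the SVX/VAS arrays. Map3k5, which encodes ASK1, was 1.34-fold lower (adjusted p = 0.17), and Map3k1, which encodes MEKK1, 1.27-fold lower (adjusted p = 0.25), both kinases upstream of JNK, the kinase that phosphorylates Jun. The groups did not overlap in these 3 of the 28 genes, beside 8.17% of all clusters.

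Among 16 factors that act on AP-1 gene promoters, 0 met the submitters' criteria and 0 passed by limma, with 2 higher and 1 lower at an unadjusted p under 0.05, beside 5.13% and 6.78% of all clusters. Srf, serum response factor itself, was 1.25-fold higher (adjusted p = 0.32), and Mkl2, a coactivator of Srf, was 1.24-fold lower (adjusted p = 0.30). Likewise 0 of 16 inhibitors of MAP kinase signalling met the criteria or passed by limma, with 2 higher and 1 lower at an unadjusted p under 0.05. Those stand beside 5.13% higher and 6.78% lower among all clusters. In lists this short, neither this count nor that of the promoter factors was read as a result. The phosphatase Dusp5, which acts on ERK, was 1.25-fold higher (adjusted p = 0.22), Dusp2 1.23-fold higher (adjusted p = 0.38) and Dusp8, which acts on JNK and p38, 1.24-fold lower (adjusted p = 0.30).

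**Figure D4:**
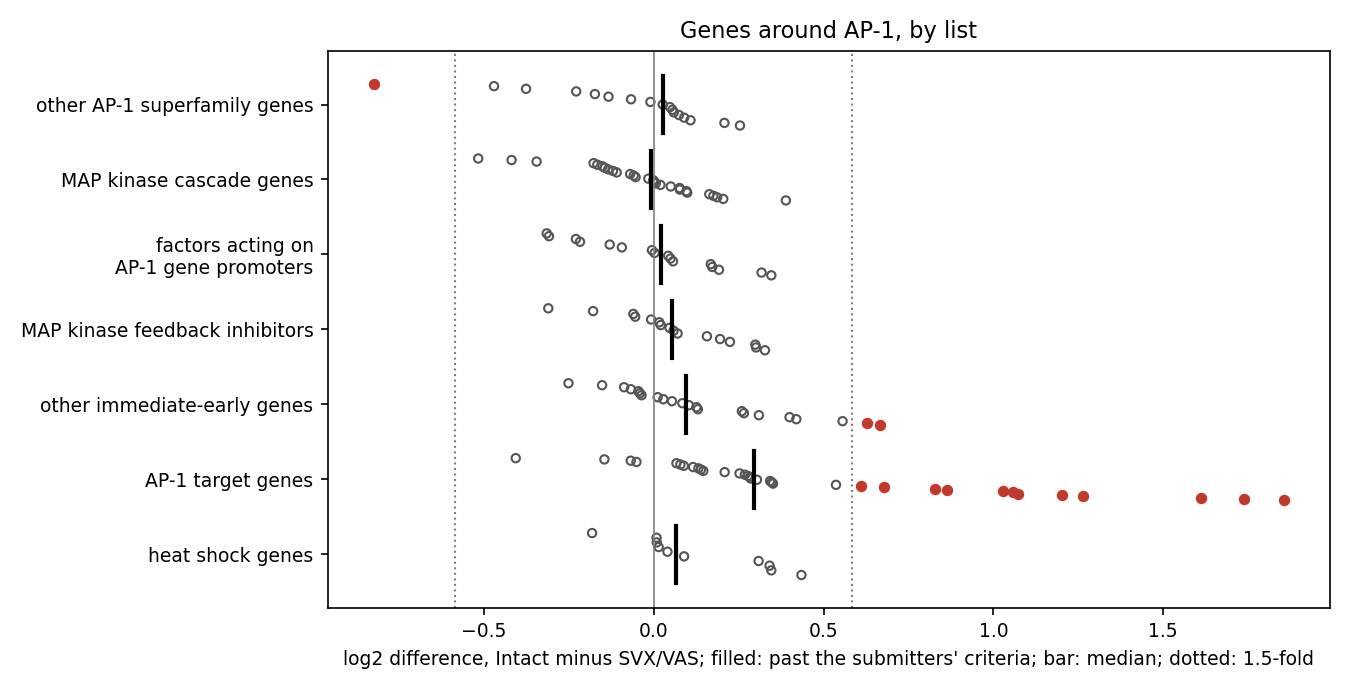
Log2 differences, Intact minus SVX/VAS, of the genes in each list, 1 point a gene; filled points met the submitters' criteria, thick bars are list medians and dotted lines mark 1.5-fold. The AP-1 target list has 12 of 34 genes filled on the higher side, while the kinase, promoter factor, feedback and heat shock lists have none.

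Markers of cell types and of stress were read beside the members. Heat shock genes, which also respond to handling of tissue, had 9 of 10 positive and 0 past the criteria or limma's threshold, with 4 higher at an unadjusted p under 0.05, beside 5.13% of all clusters. In 3 of the 10 all Intact arrays lay above all SVX/VAS arrays, beside 3.37% of all clusters. Their mean log2 value was 7.48 to 7.92 on the Intact arrays and 7.44 to 7.62 on the SVX/VAS arrays. The chaperone genes Hsph1 (1.35-fold higher, adjusted p = 0.15), Hspd1 (1.24-fold higher, adjusted p = 0.18) and Bag3 (1.27-fold higher, adjusted p = 0.23) were those 3. Neutrophil markers had 9 of 11 positive, with a mean level of 4.86 to 5.17 on the Intact and 4.78 to 4.90 on the SVX/VAS arrays, which overlapped. At an unadjusted p under 0.05, 2 were higher and 1 lower, beside 5.13% and 6.78% of all clusters, and 0 passed by limma's adjusted p. The largest difference was that of S100a8 (1.62-fold higher, adjusted p = 0.35). Ly6g, a neutrophil surface marker named after its values were seen, was 1.29-fold lower without overlap (adjusted p = 0.20 by limma), so the list went both ways. Stromal markers were negative in 9 of 9 genes, with a median log2 difference of -0.21 and mean levels of 7.28 to 8.14 and 7.66 to 8.24. Monocyte and macrophage markers were positive in 5 of 8 genes, with mean levels of 6.82 to 7.34 and 6.89 to 7.26, which overlapped. Spermatid markers, read for sperm RNA, were positive in 3 of 5 genes, with levels of 5.11 to 5.47 and 5.10 to 5.17. The largest difference was that of the protamine gene Prm1 (1.31-fold higher, adjusted p = 0.22 by limma). It was the 1 spermatid marker of 5 with an unadjusted p under 0.05, beside 5.13% of all clusters in the higher direction. Prm1 was also the 1 whose groups did not overlap, beside 3.37% of all clusters in that direction. Seminal vesicle markers were positive in 2 of 5, with levels of 3.11 to 3.35 and 3.17 to 3.30. None of the 9 stromal or 11 neutrophil markers met the submitters' criteria. The part of stress, neutrophils, stroma or sperm RNA in the values of Fos, Fosb, Junb and Jun was not tested.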

How the data were processed

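Total RNA from endometrium was biotin-labelled and run on the Affymetrix Mouse Gene 2.0 ST platform, as the labels state. The authors corrected background by RMA and for GC content and averaged probes in Partek 6.6, per the series text; the sources used here give no genome build. The per-array log2 values the authors deposited were used. Their group differences matched the log2 of the ratio column the authors deposited to within 0.00006, which settles the log base and direction. The p-value column they deposited matched an equal-variance t-test of these values, and the score columns (signed fold change, F and sums of squares), deposited by the authors per the file headers, were not needed.

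limma 3.58.1 (R 4.3.3) was fitted to all 41345 clusters on all 8 arrays, Intact minus SVX/VAS, with Benjamini-Hochberg adjustment over all of them and a threshold of 0.05. Intervals are 95%. The fit was tested on simulated data. Exact permutation tests used SciPy 1.17.1 over the 70 splits of 8 arrays. The rule for names took all members, the 3 genes of each pathway list with the smallest p (1 of them is not reported here), and the 3 nearest profiles of each member. Of marker lists it took counts, the median and the largest difference. Genes named beyond it are said to be chosen after their values were seen. The members and lists were chosen with earlier results of these data known. Of 218 listed symbols, 216 were measured. Where clusters shared a symbol, the lowest ID stood for the gene. Promoters came from RefSeq. Each array is a pool of separate females, and the labels give no batch. The number of arrays limits the precision.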

Additional observations from a re-analysis of the deposited data

Results flagged for a closer look

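Among 20 groups of 4 arrays (10 member clusters in 2 groups), 1 held an array far from the others by Dixon's test. SVX/VAS replicate 4 had a Maff value of 6.21055 where the nearest array had 6.03, a gap that was 0.835 of the group's range, just past Dixon's critical value. Chance flags about 5% of groups, so 1 of 20 is what chance would give. The whole range was only 0.21 log2 units, and the Maff difference without this array was 0.07.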

How the results depend on the processing

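With 4 arrays a group, the number of clusters called depended on the setting. In place of 34, the methods' t-test and the authors' deposited table gave 10, quantile normalization 54, array weights 77, a trended robust prior 173, clusters with 1 gene symbol 234 and the filter on dim clusters 242. Leaving out 1 array gave 2 to 50, the latter without Intact replicate 3. The submitters' criteria gave 768 clusters and 661 to 970 without 1 array.

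Fos passed the adjusted threshold with quantile normalization (log2 difference 0.95, adjusted p = 0.039), the dim filter (0.91, adjusted p = 0.022), clusters with 1 symbol (0.91, adjusted p = 0.014), the trended robust prior (0.91, adjusted p = 0.025) and array weights (0.92, adjusted p = 0.046). Without 1 array Fos ranged from 0.86 to 1.01 (adjusted p by limma 0.050 to 0.16), Fosb from 0.34 to 0.48, Junb from 0.20 to 0.30, Jun from -0.64 to -0.46, Jund from -0.22 to -0.11, Fosl2 from -0.15 to -0.02 and Batf from 0.03 to 0.28. Only Atf3 (-0.12 to 0.12) and Maff (-0.012 to 0.069) turned sign. Fos minus Jun kept 1.40 to 1.51, Jun minus Junb -0.88 to -0.70 and Fos minus Junb 0.58 to 0.75.

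The replicate block left 0 clusters called by limma (4620 at an unadjusted p under 0.05) and gave Fos an adjusted p of 0.21. Same-numbered arrays deviated together only weakly (correlations -0.03 to 0.07), and differently numbered arrays had correlations of -0.10 to 0.11. The labels do not say whether the numbers pair the pools, and correlations over so few arrays cannot decide it. Leaving out 1 array gave 1 to 2 members past the submitters' criteria, 0 to 1 other AP-1 superfamily genes, 1 to 3 other immediate-early genes and 9 to 12 AP-1 targets. By limma's adjusted p these lists held 0, 0 and 2, against 1, 2 and 12 by the criteria, and the superfamily list held 0 with the highest cluster ID.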
